A study of Homo sapiens with 2 samples.

Results

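Forkhead transcription factors were examined in the RNA-Seq counts of parental and CARM1 KO A1847 cells. Members were the protein-coding genes of the GENCODE annotation on GRCh37 whose symbol starts with FOX, without FOXRED1 and FOXRED2, and 53 of the 57736 genes in the table met this rule. FOXL2NB was among them by its name alone. It is the gene beside FOXL2 and encodes no forkhead domain, so 52 members are forkhead genes and FOXL2NB is described with its neighbour. A1847 is a human epithelial ovarian cancer cell line. CARM1, an arginine methyltransferase, was wild type in the parental cells and was targeted in the KO cells with a lentiviral CRISPR guide RNA. The CARM1 KO cells are a single clone and were compared with the parental population, so what cloning changed and what the loss of CARM1 changed cannot be told apart. There was 1 library in each condition, and no difference below has a replicate check.

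Forkhead proteins share a winged-helix domain that binds DNA. The FOXA proteins are pioneer factors that can bind closed chromatin, and the FOXC, FOXD, FOXF and FOXL proteins pattern tissues of the embryo. The FOXO proteins are held in the cytoplasm when PI3K-AKT signaling is active, FOXM1 drives the genes of mitosis, FOXJ1 switches on motile cilia, and FOXL2 maintains granulosa cells of the ovary.

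The parental library held 30741953 reads and the CARM1 KO library 32300391. CARM1, the targeted gene, was counted 975 times in the parental library against 380 times in the KO library, 2.63-fold lower (95% counting interval 2.33 to 2.97). These counts measure RNA only, and the paper examined CARM1 protein of parental and KO cells by immunoblot. Ratios were scaled by edgeR's TMM method, which corrects for differences in library composition. Intervals are exact 95% binomial intervals, and they cover counting error only. A gene was counted as past 3-fold when its scaled ratio was over 3 and its interval was clear of no change, and a count of 0 was put at 3 reads. Among the 18563 genes whose counts added up to 10 or more, 12.4% were past 3-fold higher in CARM1 KO cells and 11.2% were past 3-fold lower. Among the protein-coding genes these shares were 12.4% and 9.02%.

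Of the 53 genes, 14 had no read in either library, 10 had between 1 and 9 reads, and 29 had at least 10 reads and were compared. Among the 29 genes, 7 were past 3-fold higher in CARM1 KO cells and 3 were past 3-fold lower, which is 24.1% and 10.3%. Those past 3-fold higher were FOXD3, FOXD2, FOXP1, FOXD1, FOXA3, FOXL1 and FOXE1, and the assignment of reads to FOXD1 is uncertain, as described below. Those past 3-fold lower were FOXN4, FOXL2 and FOXL2NB. Without FOXL2NB, which is no forkhead gene, 7 of 28 genes were higher and 2 were lower, which is 25% and 7.14%. The share of higher genes stood above the background and the share of lower genes stood near it, but both rest on few genes and neither difference from the background was tested. Fold changes on the log2 scale carry a prior count of 2. Their median was 0.06 over the 29 genes, 0.12 without FOXL2NB, 0.03 over all protein-coding genes and -0.02 over all genes tested. The middle of the family thus lay near 0, with members past 3-fold on both sides. Among the 19 members under the threshold, 4 more were higher and 5 more were lower by more than counting error.

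Low counts have wide ratios, so the genes were also counted by their reads. Of the 11 genes with 10 to 99 reads, 4 were past 3-fold higher and 1 was lower, while 23.8% of the protein-coding genes in that range were higher and 20.3% were lower. Of the 10 genes with 100 reads or more but fewer than 1000, 2 were higher and 2 were lower, against 18% and 10.5%. Of the 8 genes with 1000 reads or more, 1 was higher, against 5.63%, and none was lower, against 4.60%. The member of the last range that was higher was FOXP1.

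**Figure D1:**
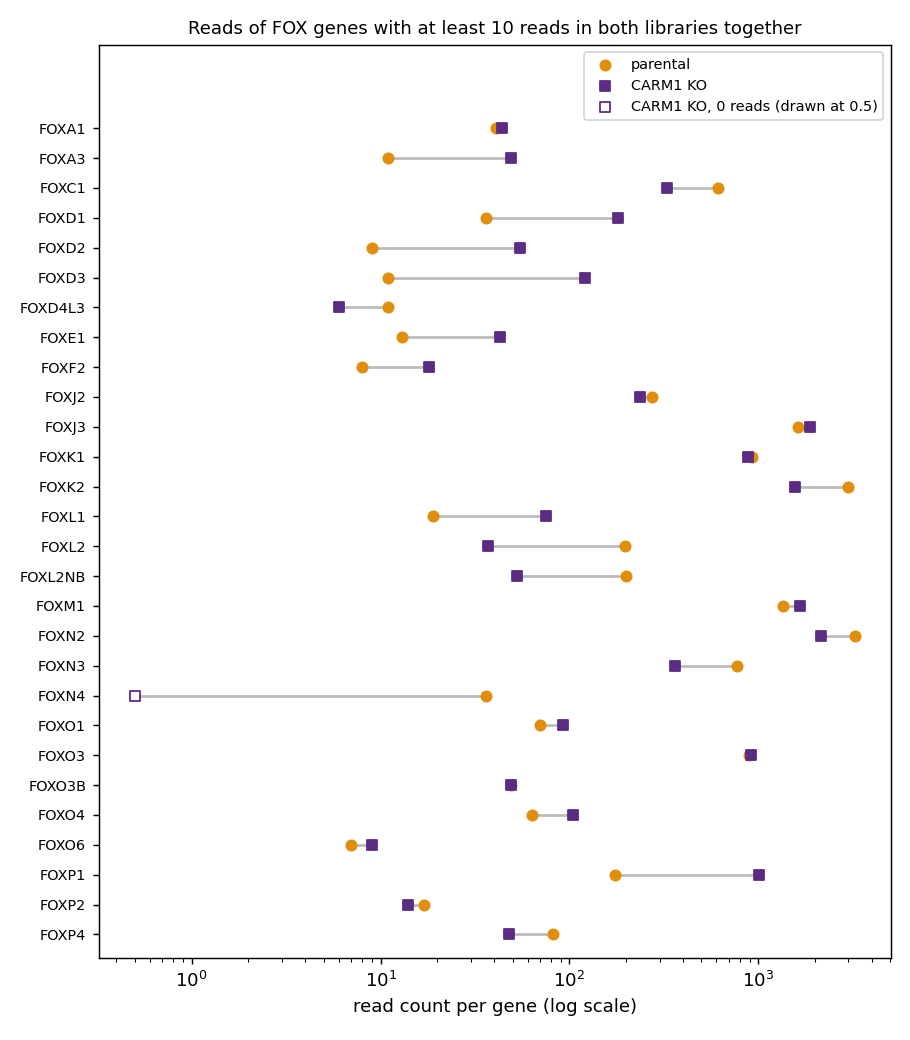
Read counts on a log axis of 28 of the 29 FOX genes with at least 10 reads, with 1 row per gene, circles for the parental library and squares for the CARM1 KO library. The lines are long for FOXD1, FOXD2, FOXD3, FOXP1 and FOXL2 and short for FOXA1, FOXK1 and FOXO3, and FOXN4 has 0 reads in CARM1 KO cells.

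The sequences of 4 regions are shown because the members beside them changed most or changed together with a neighbour: the gap between the starts of FOXL2 and FOXL2NB, and the 150 bases upstream of the outermost annotated start of FOXP1, FOXD3 and FOXN4. They were read from GRCh37 and are written 5′ to 3′ on the strand of the gene, with that of FOXL2NB for the gap. Capitals mark CpG dinucleotides, the sites of DNA methylation in vertebrates.
FOXL2-FOXL2NB gap, chr3:138665980-138666058, plus strand: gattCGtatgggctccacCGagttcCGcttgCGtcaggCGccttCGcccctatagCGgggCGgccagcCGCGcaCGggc
FOXP1 upstream, chr3:71633130-71633279, minus strand: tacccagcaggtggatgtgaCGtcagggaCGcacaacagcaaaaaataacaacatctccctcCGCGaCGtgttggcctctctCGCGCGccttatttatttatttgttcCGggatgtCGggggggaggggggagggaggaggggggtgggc
FOXD3 upstream, chr1:63788088-63788237, plus strand: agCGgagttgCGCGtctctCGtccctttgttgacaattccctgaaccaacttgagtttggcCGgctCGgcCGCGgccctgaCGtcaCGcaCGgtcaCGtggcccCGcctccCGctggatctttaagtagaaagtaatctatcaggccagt
FOXN4 upstream, chr12:109747090-109747239, minus strand: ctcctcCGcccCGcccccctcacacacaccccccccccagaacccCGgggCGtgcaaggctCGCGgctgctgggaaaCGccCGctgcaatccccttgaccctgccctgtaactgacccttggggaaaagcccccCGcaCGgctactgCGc
The gap of 79 bases holds 11 CpG dinucleotides, and the regions of FOXP1, FOXD3 and FOXN4 hold 10, 14 and 11. None of these regions overlaps an annotated exon, except that the FOXD3 region lies in an exon of FOXD3-AS1, a long non-coding RNA on the other strand.

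FOXP1, a transcriptional repressor of heart, lung and B-cell development, had the largest gain in reads of the family as the reads were assigned. FOXD1 and a pseudogene laid over it, described below, together went from 900 to 2080 reads. FOXP1 is described first. It spans 71003844 to 71633129 of chromosome 3, minus strand. Its count was 175 in the parental library against 1012 in the KO library, 5.65-fold higher (95% counting interval 4.81 to 6.67). The rise extended to non-coding RNAs of the same locus. FOXP1-DT, which starts 964 bases away on the other strand, had 5 and 18 reads, and FOXP1-IT1, which lies inside the gene, had 2 and 22 reads. FOXP1-IT1 lies on the strand of FOXP1, so reads from unspliced FOXP1 RNA and reads from FOXP1-IT1 cannot be told apart. None of the other FOXP genes was past 3-fold. FOXP2, a factor of speech-related circuits, had 17 and 14 reads, FOXP4 had 82 and 48 reads, and FOXP3, the factor of regulatory T cells, had 4 and 2 reads, too few for a comparison. The ratio of FOXP4 was 1.75-fold lower (95% counting interval 1.21 to 2.55).

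The FOXD genes held the largest rise by ratio. FOXD3, a factor of pluripotent cells and the neural crest, spans 63788238 to 63790799 of chromosome 1, plus strand. Its count was 11 in the parental library against 121 in the KO library, 10.7-fold higher (95% counting interval 5.80 to 22.1). Its antisense RNA FOXD3-AS1 had 19 and 70 reads, 3.60-fold higher. The exons of both overlap in part, and 16.3% of the 75-base windows of FOXD3, the length of 1 read, also occur in FOXD3-AS1. FOXD2, a factor of the kidney and the mesoderm, had 9 and 55 reads, 5.97-fold higher (95% counting interval 2.93 to 13.7). Its neighbour FOXD2-AS1 had 2 and 12 reads, with a wide counting interval of the ratio (1.30 to 53.9). In both loci the gene and its antisense RNA were higher in CARM1 KO cells, with few reads for FOXD2-AS1 and shared sequence for FOXD3-AS1.

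FOXD1, a factor of kidney stroma, was counted 36 times in parental against 181 times in KO cells, 4.91-fold higher (95% counting interval 3.42 to 7.23). This value is uncertain. The annotation places a pseudogene, AC099522.1, on the same strand over FOXD1, and 76.3% of the 75-base windows of FOXD1 occur in another gene, AC099522.1 foremost. AC099522.1 had 864 and 1899 reads, and FOXD1 and AC099522.1 together were 2.26-fold higher (95% counting interval 2.09 to 2.44), which is under the threshold. The direction was the same for the gene and for the sum. The FOXD4 genes are near-identical copies, among which read assignment is uncertain. Summed over 7 such genes the count was 25 in parental against 17 in KO cells, 1.51-fold lower with an interval that included no change (0.781 to 2.97).

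FOXA3, FOXL1 and FOXE1 were also past 3-fold, each from fewer than 20 reads in parental cells. FOXA3, a factor of the liver and gut, had 11 and 49 reads, 4.35-fold higher (95% counting interval 2.23 to 9.28). FOXL1, a factor of the mesenchyme beneath the gut epithelium, had 19 and 75 reads, 3.86-fold higher (95% counting interval 2.31 to 6.76). FOXE1, the thyroid factor, had 13 and 43 reads, 3.23-fold higher (95% counting interval 1.71 to 6.55). The intervals of these genes reach below 3-fold, so the counts do not place their changes firmly past the threshold. FOXE1 lay just inside the threshold, and FOXF2, with 8 and 18 reads and a ratio of 2.20, was the nearest gene outside it on the higher side. Of their relatives, FOXA1 had 41 and 44 reads with an interval that included no change, while FOXA2, FOXE3 and FOXL3 had too few reads for a comparison.

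FOXL2 was the forkhead gene of highest count past 3-fold lower. It spans 138663066 to 138665979 of chromosome 3, minus strand. Its count was 198 in the parental library against 37 in the KO library, 5.48-fold lower (95% counting interval 3.84 to 8.01). FOXL2NB begins 79 bases away on the plus strand, and it had 200 and 53 reads, 3.86-fold lower (95% counting interval 2.84 to 5.33). The genes on either side of the short gap printed above thus had near-equal counts in parental cells and were both lower in CARM1 KO cells. The spans of the genes do not overlap, and no 75-base window of either occurs in another gene. Within 100 kb, MRPS22 had 3059 and 4247 reads, and the non-coding RNA LINC01391 had 10 and 5 reads.

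FOXN4, a factor of retinal and spinal progenitors, was counted 36 times in parental and 0 times in KO cells. It was at least 12.3-fold lower, with the count of 0 put at 3 reads, and the counting interval reached down to a 9.49-fold fall. It spans 109715783 to 109747089 of chromosome 12, minus strand. None of its 75-base windows occurs in another gene. The other FOXN genes with reads were lower as well, though under the threshold. FOXN2 had 3230 and 2159 reads, 1.53-fold lower (95% counting interval 1.45 to 1.62). FOXN3, a repressor linked to cell-cycle checkpoints, had 775 and 363 reads, 2.19-fold lower (95% counting interval 1.93 to 2.48). It was the nearest gene to the threshold on the lower side, and FOXL2NB lay just inside it.

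**Figure D2:**
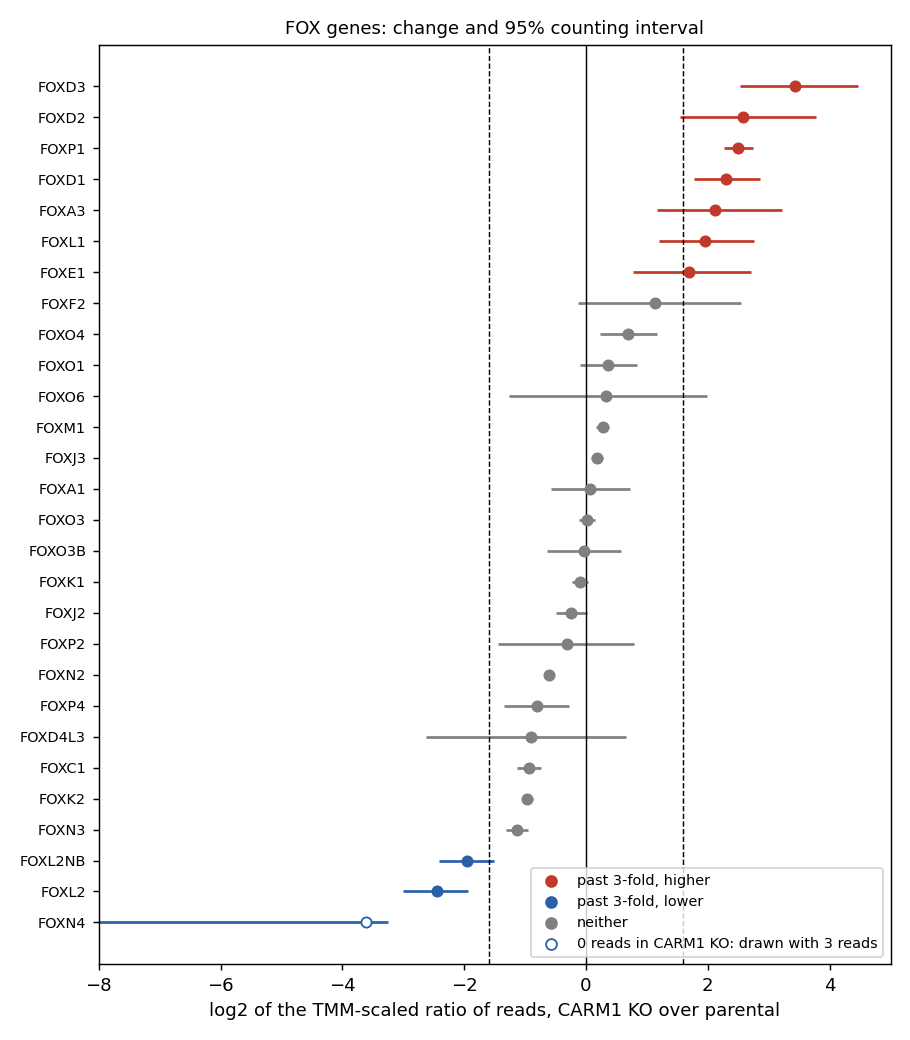
Log2 of the scaled ratio of reads, CARM1 KO over parental, for 28 of the 29 FOX genes, with exact 95% counting intervals as lines and dashed lines at 3-fold. The 7 red genes lie to the right of 3-fold and the 3 blue genes to the left, and the interval of FOXN4 runs past the left edge because its CARM1 KO count is 0.

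Among the 19 genes under the threshold, 4 were higher and 5 were lower by more than counting error, and the intervals of the other 10 included no change. Among the 4 higher were FOXJ3, FOXM1 and FOXO4, and the 5 lower were FOXC1, FOXK2, FOXN2, FOXN3 and FOXP4. Counting error is small for abundant genes, so these differences exceed it without being large. FOXC1, a factor of mesenchyme and the eye, had 614 and 328 reads, 1.92-fold lower (95% counting interval 1.67 to 2.20).

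FOXK2 and FOXK1 recruit repressor complexes and restrain autophagy genes. FOXK2 had 2973 and 1563 reads, 1.95-fold lower (95% counting interval 1.83 to 2.07), while FOXK1 had 925 and 887 reads with an interval that included no change. FOXJ3 had 1626 and 1884 reads and FOXJ2 had 274 and 237 reads. FOXJ1, the master factor of motile cilia, had 5 and 1 reads, too few for a comparison.

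The FOXO genes, the effectors of insulin and PI3K signaling, were all under the threshold. FOXO3 had 888 and 918 reads, a ratio of 1.01 (95% counting interval 0.920 to 1.11). FOXO1 had 70 and 92 reads, FOXO4 had 63 and 104 reads, and FOXO6 had 7 and 9 reads. FOXO4 alone had an interval clear of no change, 1.61-fold higher (95% counting interval 1.17 to 2.24). FOXO3B had 49 reads in each library, but 61.3% of its 75-base windows occur in other genes, FOXO3 foremost, so its reads cannot be told apart from those of FOXO3. FOXO3 and FOXO3B together had 937 and 967 reads.

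The members with fewer than 10 reads in all were not compared. Besides copies of FOXD4 they were FOXE3, the lens factor, with 1 and 0 reads, FOXF1 with 1 and 5 reads, FOXH1, a partner of SMAD proteins, with 3 and 4 reads, FOXS1 with 3 and 0 reads, and FOXJ1 and FOXP3. No read was counted for FOXA2, FOXB1, FOXB2, FOXC2, FOXD4L5, FOXD4L6, FOXI1, FOXI2, FOXI3, FOXL3, FOXN1, FOXQ1, FOXR1 and FOXR2. At this depth RNA of these genes was not detectable, except that FOXD4L5 and FOXD4L6 share 76.5% and 83.5% of their 75-base windows with other genes, so their count of 0 is uncertain.

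Levels of different genes can be set side by side only per length, and RPKM computed on the TMM-scaled library sizes is used here. In parental cells 11 forkhead genes stood at an RPKM of 1 or more, and in CARM1 KO cells 12 did. The highest level in parental cells was that of FOXN2, at 18.9, followed by FOXK2 at 9.56, FOXM1 at 8.79 and FOXJ3 at 7.57. In CARM1 KO cells the order of the leading genes was FOXN2 at 12.4, FOXM1 at 10.6, FOXJ3 at 8.57 and FOXK2 at 4.91. Over the longest transcript FOXM1 was first in CARM1 KO cells at 14.7 and FOXN2 second at 12.5, so their order depends on the length used. None of the leading genes was past 3-fold. FOXL2 stood at 2.18 in parental cells, ninth of the forkhead genes with reads, and at 0.398 in CARM1 KO cells. FOXD1 and FOXD3 reached 1.98 and 1.48 in CARM1 KO cells from 0.404 and 0.138. FOXP1 stood at 0.171 and 0.968 over its long exon union, and at 0.783 and 4.42 over its longest transcript. By subclass the FOXN genes held 31.6% of the summed level in parental and 21.9% in CARM1 KO cells, and the FOXD genes held 1.47% and 7.08%. These shares rest on the uncertain level of FOXD1.

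**Figure D3:**
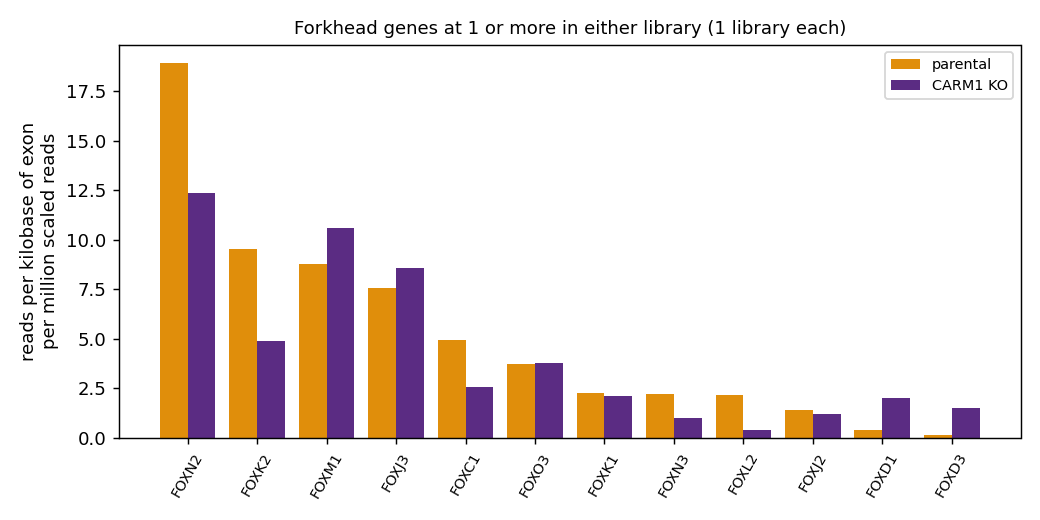
RPKM on scaled library sizes of forkhead genes that reached 1 in either library, with orange bars for parental and purple bars for CARM1 KO cells, from 1 library each. FOXN2, FOXK2, FOXM1 and FOXJ3 are the highest in parental cells, and FOXL2 falls from 2.18 to 0.398.

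Gene structure and promoter sequence were not part of the rule. Many forkhead genes of the developmental subclasses have their protein in 1 exon. Of the 8 compared genes with 1 coding exon, 4 were past 3-fold higher and 1 was lower. Of the 6 with 2 coding exons, 2 were higher and none was lower, and of the 14 with more coding exons, 1 was higher and 1 was lower. Among all protein-coding genes with 1 coding exon, 16.1% were higher and 13.7% were lower, among those with 2 coding exons 15.6% and 14.2% were, and among those with more than 2 coding exons 11.9% and 8.41% were. In the 300 bases around the canonical start, 250 before and 50 after, the forkhead genes compared had a median of 32.5 CpG dinucleotides, against 27 over the protein-coding genes with at least 10 reads. The 7 genes past 3-fold higher had a median of 32, with 6 for FOXL1 and 41 for FOXP1 at the ends of the range. The 19 genes under the threshold had a median of 34, and of the genes past 3-fold lower FOXL2 had 28 and FOXN4 had 16. The letters GTAAACA, a core forkhead site, were searched on both strands of these windows, and 1 of 49 forkhead genes, FOXO4, held them, against 2.34% of all protein-coding genes. This says only that the letters are not in the other windows.

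For each gene compared, the 5 expressed protein-coding genes on either side were taken, each with at least 50 reads and none a FOX gene. Beside FOXC1 and FOXF2 there were 7 such genes in place of 10. Around the 7 genes past 3-fold higher the median log2 fold change of these neighbors ran from -0.74 to 0.29, and around the 3 genes past 3-fold lower from 0.02 to 0.77. FOXA3 had the lowest value, with 3 of the 10 neighbors past 3-fold lower, beside 9.02% of all protein-coding genes, while FOXA3 was higher. FOXN4 had the highest, and its own log2 fold change was -4.26. Around FOXP1, 3 of the 10 neighbors were past 3-fold higher, as FOXP1 was, and 1 was lower, with a median of -0.07. Among all protein-coding genes 12.4% were higher and 9.02% were lower. By their medians, the neighbors thus did not share the changes past 3-fold as a group. FOXK2 differed in this. Its log2 fold change was -0.96 and the median of its 10 neighbors was -0.93, with a range from -2.05 to -0.16. FOXN2 had a log2 fold change of -0.61 beside a median of -0.74. The neighbors of FOXN2 ran from -6.25 to 1.73, with 3 past 3-fold lower and 1 higher, so they did not move together. The cause was not tested.

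**Figure D4:**
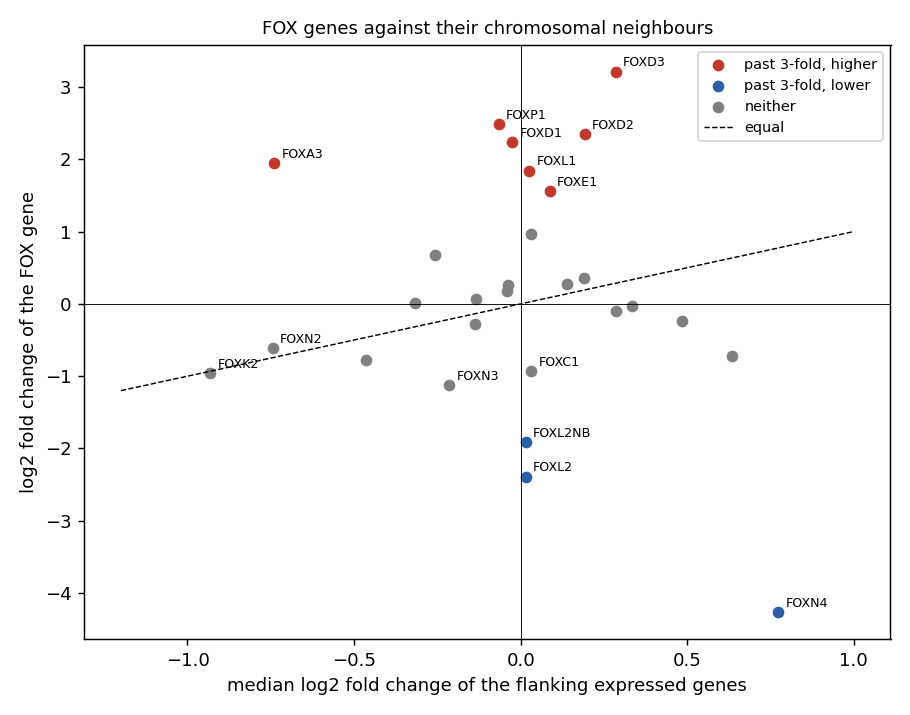
Log2 fold change (prior count of 2) of 28 of the 29 compared FOX genes against the median of their flanking expressed protein-coding genes, with a dashed line where both are equal. FOXK2 and FOXN2 lie near the line at -0.96 and -0.61, while the genes past 3-fold lie away from it.

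Coding genes that start within 100 kb were examined for the forkhead genes past 3-fold with at least 50 reads. FOXA3 had 7 compared coding genes in this range, of which 3 were lower and none was higher. Among all protein-coding genes 9.02% were lower and 12.4% were higher. MYPOP, a transcriptional regulator, had 82 and 19 reads and DMPK, a muscle kinase, had 318 and 105 reads, while SYMPK, a subunit of the 3′ end processing machinery that starts nearest, had 816 and 737 reads. Beside FOXL1, MTHFSD had 166 and 395 reads. Beside FOXD3, ALG6 had 509 and 572 reads, beside FOXE1, TRMO had 671 and 709 reads, and beside FOXD1, BTF3 had 15521 and 13558 reads. Beside FOXL2, FOXL2NB was past 3-fold lower and MRPS22 was not. No coding gene in this range was compared for FOXP1 and FOXD2.

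Genes named for a forkhead gene but not coding for a protein numbered 16 in the table, of which 7 had at least 10 reads. Of the 7, 4 were past 3-fold higher and none was lower, while among all long non-coding RNAs 12.6% were higher and 17.9% were lower. The 4 were FOXD2-AS1, FOXD3-AS1, FOXP1-DT and FOXP1-IT1, and each stands beside a forkhead gene that was itself higher. FOXD2-AS1, FOXP1-DT and FOXP1-IT1 had only 2, 5 and 2 reads in parental cells, so their ratios are loose. FOXN3-AS1 had 16 and 6 reads beside FOXN3, which was lower, and FOXD1-AS1 had 6 and 8 reads. The counting is not stated to use strand, so reads from a gene and an antisense RNA that overlaps it cannot be told apart.

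The genes downstream and upstream of the best-known forkhead factors were counted from lists of textbook pathways. The lists were chosen with earlier results of these data known, so their counts and shares support nothing by themselves. FOXM1 had 1346 and 1664 reads, 1.21-fold higher (95% counting interval 1.12 to 1.30). Of 20 FOXM1 targets in mitosis, none was past 3-fold in either direction, and the median log2 fold change was -0.10. The ratio was above 1 for 5 of them and below 1 for 15. Among those below 1, the counting intervals of CENPA, CDC25C, KIF20A, CDC20 and CCNB2 included no change. Among all protein-coding genes 12.4% were past 3-fold higher and 9.02% were lower. Among those with 1000 reads or more these shares were 5.63% and 4.60%. CENPF, a kinetochore protein, had the largest change of the list, with 23008 and 9633 reads, and it stayed under the threshold.

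Of the FOXO targets, 23 were compared, and 7 were past 3-fold higher and 3 were lower, with a median log2 fold change of 0.36. These are 30.4% and 13.0% of the list, beside 12.4% and 9.02% of all protein-coding genes, and the difference was not tested. The list does not separate genes that FOXO proteins activate from genes they repress. Its counts and median therefore give no direction of FOXO activity. PDK4, a kinase that turns cells from glucose to fat oxidation, had 5 and 80 reads, and FBXO32, a ubiquitin ligase of muscle wasting, had 11 and 77 reads. PMAIP1, a pro-apoptotic protein also known as NOXA, had 265 and 1578 reads, and IRS2, an adaptor of the insulin receptor, had 122 and 615 reads. On the lower side CCND2, cyclin D2, had 73228 and 17 reads, BBC3, the pro-apoptotic protein PUMA, had 160 and 30 reads, and SESN1, a stress sensor, had 850 and 190 reads.

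Of 21 genes that control the FOXO proteins, 3 were past 3-fold higher and 1 was lower. These shares, 14.3% and 4.76%, were near those of all protein-coding genes. SGK1, a kinase that phosphorylates FOXO3, had 145 and 901 reads, and PIK3CD, a catalytic subunit of PI3K, had 109 and 575 reads. PIK3R1, the regulatory subunit of PI3K, had 2867 and 809 reads. AKT1 had 3553 and 2635 reads, under the threshold.

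Of the genes of motile cilia, 16 were compared, and 3 were higher and 2 were lower, with a median log2 fold change of -0.70. These shares, 18.8% and 12.5%, were near those of all protein-coding genes. DNAH11, a dynein heavy chain, had 11 and 208 reads, TPPP3 had 20 and 67 reads, and HYDIN had 71 and 225 reads. The lower genes were RSPH9, a radial spoke protein, with 34 and 0 reads, and PIFO with 25 and 0 reads. Of the partners and targets of the FOXA proteins, 6 were compared, and 4 were higher, which is 66.7%, and none was lower. Among all protein-coding genes 12.4% were higher. The difference rests on few genes and was not tested. CDH1, E-cadherin, had 3 and 53 reads, CXCR4 had 76 and 578 reads, and ONECUT2 had 29 and 108 reads. ESR1, TTR, TFF3 and GATA4 had no read.

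Of the mesenchyme genes placed around the FOXC and FOXF proteins, 15 were compared, and 7 were lower and 1 was higher. This is 46.7% and 6.67%, beside 9.02% and 12.4% of all protein-coding genes, and the difference was not tested. The median log2 fold change of the list was -1.27. PDGFRA, a growth factor receptor, had 14326 and 2 reads, MEOX1 had 927 and 18 reads, GLI1, the effector of Hedgehog signaling, had 367 and 6 reads, and TBX1 had 60 and 1 reads. FOXL1, a gene often placed downstream of GLI proteins, was higher while GLI1 was lower. Of the granulosa genes of FOXL2, 5 were compared, and none was past 3-fold higher and 1 was past 3-fold lower. The lower share is 20%, from few genes, beside 9.02% of all protein-coding genes. INHBA, a subunit of activin and the gene of most reads in the list, had 259 and 692 reads, 2.61-fold higher with an interval clear of no change (2.26 to 3.02). INHA, a subunit of inhibin, had 10 and 2 reads and was the gene past 3-fold lower. FST, an inhibitor of activin, had 14 and 19 reads, AMH had 13 and 8 reads, and CYP19A1, FSHR, STAR and AMHR2 had no read in either library.

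**Figure D5:**
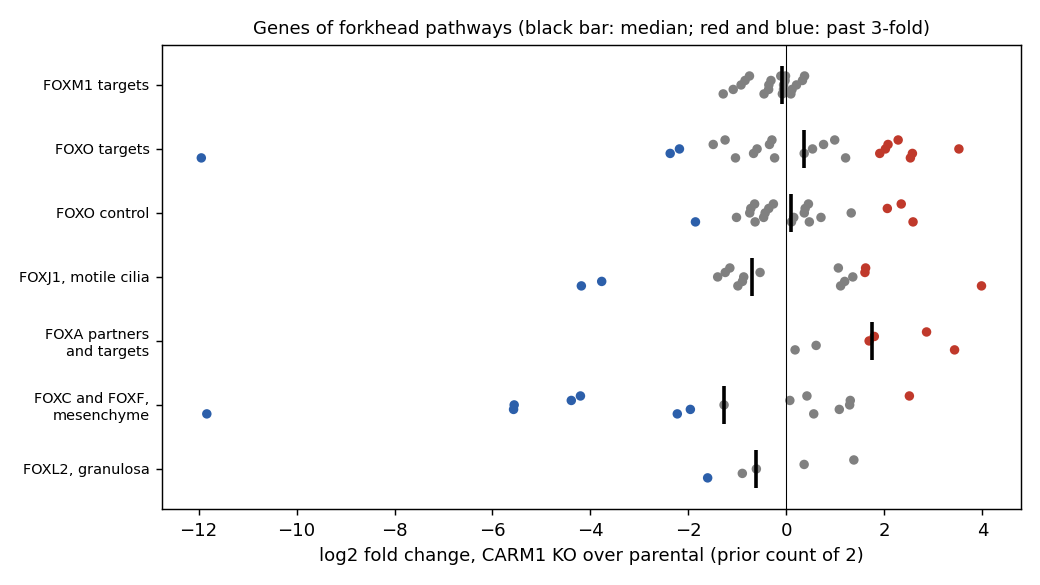
Log2 fold change (prior count of 2) of each gene with at least 10 reads in 7 lists of forkhead pathways, where red is past 3-fold higher, blue past 3-fold lower, grey neither, and the black bar is the median of the list. The FOXM1 targets have their median at -0.10 and reach -1.29 for CENPF, while the FOXC and FOXF list has its median at -1.27.

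Markers of cell types moved between the libraries too. Of the epithelial markers of the ovary, 7 were compared, and 6 were past 3-fold higher in CARM1 KO cells. This is 85.7%, beside 12.4% of all protein-coding genes, and the difference was not tested. WT1 and MUC16, defining markers of serous ovarian tumors, had 8 and 1 reads and 0 and 1 reads. Of the 6 fibroblast markers, 4 were lower and COL1A1 was higher. The lower share is 66.7%, beside 9.02% of all protein-coding genes, and this was not tested either. The summed level of the fibroblast list was a CPM of 570 in parental and 21.5 in CARM1 KO cells. In parental cells most of this sum was COL1A2, with 16732 and 3 reads, and in CARM1 KO cells most of it was COL1A1, with 131 and 537 reads. The summed CPM was 1411 and 4751 for the epithelial list, 2.57 and 2.73 for ciliated cells, 0.289 and 0.690 for immune cells and 0.0321 and 0.0627 for endothelial cells. The granulosa list holds FOXL2 itself, which made up 6.36 of its 6.78 CPM in parental and 1.16 of 1.41 in CARM1 KO cells, so its sum is no separate measure. The endothelial marker CDH5 was at 0 in both libraries, and CYP19A1 and FSHR, which define granulosa cells, were at 0 beside the FOXL2 reads. In RNA from many cells, fewer cells that express a gene and less RNA in each cell cannot be told apart. The part of these shifts in the changes of the forkhead genes was not tested.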

How the data were processed

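The authors aligned 75 bp paired-end reads to hg19 with bowtie2, used RSEM to estimate reads of each Ensembl gene, and deposited these as whole-number counts for 1 parental and 1 CARM1 KO library (30741953 and 32300391 reads). The annotation release and the use of strand are not given in the sources used here. Reads of near-identical copies are uncertain. Symbols, positions and lengths came from GENCODE release 44 on GRCh37, which named 43484 of 57736 identifiers. Counts were scaled by TMM (edgeR 4.0.16, R 4.3.3), and intervals came from scipy 1.17.1. Without replicates no p-value is given. Alternatives were other scalings (DESeq2 1.42.0 among them), read minimums, prior counts, ratio rules, lengths and edgeR's exact test with an assumed spread. The steps were tested on simulated data.

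Members and lists were chosen with earlier results of these data known. The text names members, other FOX-named genes, neighbors within 100 kb of members past 3-fold with at least 50 reads, and at most 4 highest and 4 lowest genes past 3-fold of each list, with at least 50 reads. Others were named after their values were seen. SOD2, TXNIP, CCDC39 and PECAM1 were not matched. Some genes of the members and lists are counted but not reported by name here.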

Additional observations from a re-analysis of the deposited data

How the results depend on the processing

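The 7 higher and 3 lower members were the same count under library size only, DESeq2 size factors and upper-quartile scaling. Each of the 87 single-gene comparisons over these scalings stayed within its counting interval, with shifts of at most 0.04 on the log2 scale. The rule for a call mattered more. When the whole 95% counting interval had to lie past 3-fold, 3 members were higher (FOXD1, FOXD3 and FOXP1) and 2 were lower (FOXL2 and FOXN4), while 1292 of all genes were higher and 1234 were lower. With edgeR's exact test, an assumed coefficient of variation of 0.4, an FDR under 0.05 and a fold over 3, 1 member was higher (FOXD3) and 1 was lower (FOXN4), with 543 and 888 of all genes. At 0.12 the members called were those named in the report. With at least 50 reads 1219 of all genes and 2 members were lower, since FOXN4 was then not compared, and with at least 1 read 4 members were, with FOXD4 added. With a ratio over 2 in place of 3 there were 3180 lower genes, FOXN3 among them. The smaller counts follow from the construction of stricter rules, and the true spread between replicates is unknown. Without FOXL2NB, chosen after seeing the data, 2 members were lower. Without the 11 members that share over 25% of their 75-base windows with another gene, also chosen afterwards, 6 were higher and 3 were lower, since FOXD1 drops out. The median log2 fold change of the members ran from 0.01 with at least 1 read to 0.18 without the sharing members. No paired analysis was possible because each condition has a lone library, which also leaves nothing to omit in turn. Depth limits the genes with fewer than 20 reads in parental cells, for which the intervals span several fold.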
